A study of Mus musculus with 20 samples.

Results

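The report concerns the shortest antigen-contacting loops of the TCRβ chain in CD8+ T cells, namely in-frame clones whose CDR3β spans at most 11 residues, counted from the conserved cysteine to the conserved phenylalanine. In 17 mice, 15861 of 258892 in-frame TCRβ clones (6.13%) met this rule, and they held 8560 distinct amino acid sequences and 13311 distinct nucleotide sequences. CD8+ T cells (1000000 per male mouse, 9 to 12 weeks of age, C57BL/6 background) were sorted from lymph nodes and spleens according to the methods, while the labels name lymph nodes. The 4 groups were WT mice (both proteasome subunits, 4 mice), β5i-KO mice (no Psmb8, 5 mice), β5t-KO mice (no Psmb11, 4 mice) and BIT mice (homozygous for an allele that carries the Psmb11 coding sequence in place of Psmb8, 4 mice). All of these alleles were present in every cell of the mouse, and 1 library was made per mouse. WT mouse 5, β5t-KO mouse 5 and BIT mouse 3 were left out by the rule, with 1, 11 and 411 in-frame clones.

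The proteasome cuts proteins into the peptides that MHC class I molecules present. β5t is the catalytic subunit of the thymoproteasome of cortical thymic epithelial cells, where developing CD8+ T cells are positively selected, and β5i is its counterpart in the immunoproteasome of hematopoietic and medullary thymic cells. The CDR3β is assembled from a V, a D and a J segment. Nucleases trim the segment ends, and terminal deoxynucleotidyl transferase adds untemplated bases, called N bases, so that a loop can be short because its germline ends are short, because much was trimmed or because few bases were added.

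Depth differed far more between mice than between the lengths compared. The libraries held 603211 to 2800778 reads, 7669 to 143170 unique molecules and 393 to 41381 in-frame clones. The number of short clones per mouse ranged from 24 in β5t-KO mouse 2 and 53 in WT mouse 1 to 2381 in β5i-KO mouse 1. The β5t-KO mice held 24 to 453 short clones and the BIT mice 898 to 2244, so values of the β5t-KO group carry the widest counting error.

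The germline ends that the short loops use most, and ends that they use little, are shown first, because their own lengths differ. They were read from the GRCm39 mouse genome on chromosome 6, 5′ to 3′ on the coding strand, with the codon of the conserved cysteine (V) or phenylalanine (J) in capitals. They matched 82.8% to 98.1% of the clones whose end was listed as untrimmed at full length. TRBJ2-7 (chr6:41520744-41520762) and TRBJ1-1 (chr6:41510798-41510817) gave the most short clones, while TRBJ2-1 (chr6:41519688-41519709) and TRBJ1-6 (chr6:41512488-41512512) have longer ends. All lie in exons of their J gene.
TRBJ2-7: ctcctatgaacagtacTTC
TRBJ1-1: caaacacagaagtcttcTTT
TRBJ2-1: taactatgctgagcagttcTTC
TRBJ1-6: ttcctataattcgcccctctacTTT
The V ends lie at the 3′ end of the V exon of TRBV13-2 (chr6:41098751-41098766), TRBV13-3 (chr6:41107504-41107519), TRBV16 (chr6:41129148-41129164) and TRBV20 (chr6:41165898-41165911).
TRBV13-2: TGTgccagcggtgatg
TRBV13-3: TGTgccagcagtgatg
TRBV16: TGTgcaagcagcttaga
TRBV20: TGTggtgctaggga
The D segments TRBD1 (chr6:41510135-41510146) and TRBD2 (chr6:41519097-41519110) are rich in G. TRBD1 lies between these V ends and TRBJ1-1, and TRBD2 lies between TRBJ1-6 and TRBJ2-1.
TRBD1: gggacagggggc
TRBD2: gggactgggggggc

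Loops of 11 residues made up most of the short clones. They numbered 12463 and took 4.82% ± 0.276 (SD, n = 17) of a mouse's in-frame clones, whereas 2725 clones had 10 residues (1.16% ± 0.173) and 406 had 9 residues (0.155% ± 0.0556). Only 178 clones had 8 residues and 62 had 7. The next length beyond the limit, 12 residues, held 29214 clones and 11.1% ± 0.676 of a mouse's clones. The share of clones that lacked the starting C or the final F rose as the loops became shorter, from 0.217% at 11 residues to 1.17% at 10, 6.40% at 9, 14.04% at 8 and 29.0% at 7 residues, so the shortest lengths are the least certain as loops. In total, 141 of the short clones lacked one of these residues.

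The share of short clones was nearly the same in the 4 genotypes. It was 5.69%, 6.23%, 6.12% and 5.89% of in-frame clones in WT mice 1 to 4, and 5.90%, 6.44%, 5.73%, 6.14% and 6.59% in β5i-KO mice 1 to 5. It was 6.86%, 6.11%, 6.53% and 5.91% in β5t-KO mice 1 to 4, and 6.22%, 6.48%, 6.78% and 6.02% in BIT mice 1, 2, 4 and 5. The 4 ranges overlapped, and the WT mean of 5.98% ± 0.241 (SD, n = 4) was the lowest. The 95% Wilson interval of a single mouse ran from 4.14% to 8.93% in β5t-KO mouse 2 and from 5.51% to 5.95% in β5i-KO mouse 3, which covers counting error only.

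None of the 5 genotype comparisons of this share passed the exact permutation test over mice (two-sided). BIT exceeded WT by 0.394 percentage points (exact p = 0.143, adjusted p over the 5 comparisons = 0.496), β5t-KO exceeded WT by 0.370 points (exact p = 0.2) and β5i-KO exceeded WT by 0.176 points (exact p = 0.397). BIT exceeded β5i-KO by 0.218 points (exact p = 0.365) and β5t-KO by 0.0243 points (exact p = 0.943). With 4 mice against 4 the smallest possible p is 0.0286, and with 5 against 4 it is 0.00794.

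Counted by unique molecules, which weight each clone by its abundance, the short loops took a higher share in BIT than in WT mice without overlap. The values were 6.55%, 6.27%, 6.47% and 6.37% in WT mice 1 to 4, and 6.81%, 6.98%, 7.61% and 6.61% in BIT mice 1, 2, 4 and 5. The difference of 0.588 points gave an exact p of 0.0286, the smallest the design allows, and an adjusted p of 0.143. β5i-KO mice lay at 6.29% to 7.15% and β5t-KO mice at 6.44% to 7.07%, overlapping both. Counted by reads, the WT mice (6.26% to 7.04%) and the BIT mice (6.56% to 7.58%) overlapped. That difference was 0.442 points (exact permutation p = 0.171, adjusted p = 0.333).

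**Figure D1:**
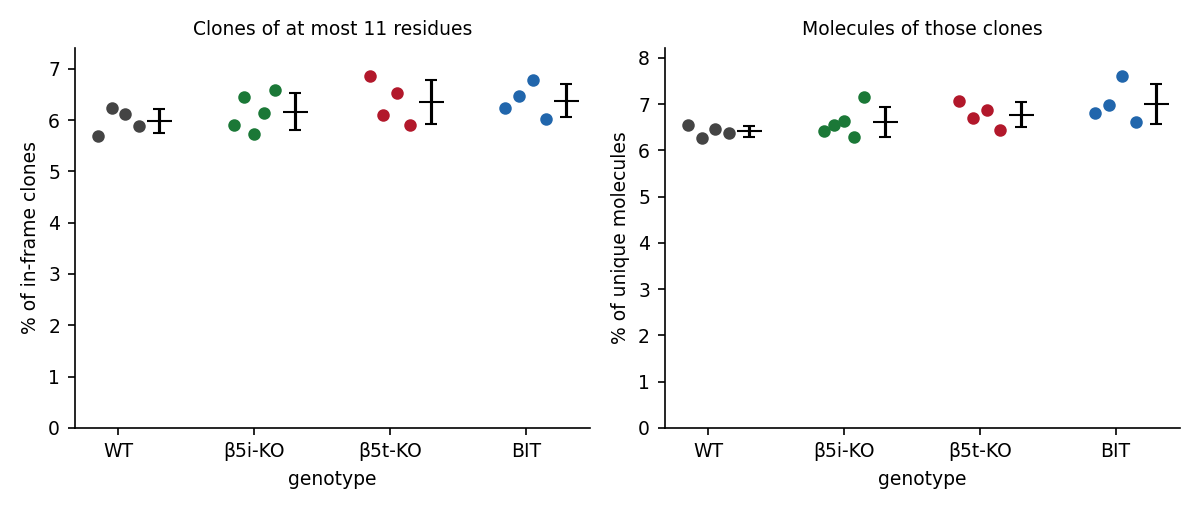
Share of clones with a CDR3β of at most 11 residues, as percent of in-frame clones (left) and as percent of unique molecules (right), by genotype. Each point is 1 mouse, and the bar beside it is the mean ± SD. By clones, all 17 mice sit between 5.69% and 6.86%, and by molecules the 4 BIT mice sit above the 4 WT mice.

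No single short length was called different between genotypes. The edgeR quasi-likelihood test of clones per length covered 14 lengths, 5 of them short (7 to 11 residues), and called none of the 5 in any comparison at an adjusted p of at most 0.05, nor did any of them reach an unadjusted p of 0.05. Over all lengths it called 7.14% in BIT against β5t-KO, a length beyond 11 residues, and 0% in each of the other 4 comparisons. Between the well-counted lengths of 10 and 11 residues, the largest difference was that of 10 residues, which made up 1.35% ± 0.157 (SD, n = 4) of β5t-KO clones and 1.05% ± 0.0539 of WT clones (log2 difference 0.29 ± 0.19 SE, adjusted p = 0.494). The β5t-KO mice lay at 1.18% to 1.53% and the WT mice at 1.00% to 1.12%, without overlap. The highest value, in β5t-KO mouse 2, came from 6 clones. For all clones of at most 10 residues, β5t-KO exceeded WT by 0.280 points. The exact permutation p was 0.0286, the smallest the design allows, and the adjusted p was 0.143. Clones of 11 residues averaged 4.99% in BIT mice, 4.80% in β5i-KO mice, 4.79% in β5t-KO mice and 4.70% in WT mice.

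Short loops differed from longer ones in their J segments. TRBJ2-7 ended 45.9% ± 4.11 (SD, n = 17) of the short clones of a mouse and 21.1% ± 1.19 of the clones of 12 or more residues, and it was higher in the short class in 17 of 17 mice. TRBJ1-1 ended 18.3% ± 3.01 of short and 9.41% ± 0.877 of longer clones, again higher in 17 of 17 mice. Every other J gene was used less by short than by longer clones on average. TRBJ2-1 took 9.02% of short against 13.96% of longer clones, TRBJ2-5 took 7.09% against 11.6%, TRBJ2-4 took 6.47% against 8.98%, and TRBJ2-3 took 2.86% against 9.58%. TRBJ1-2, TRBJ1-4, TRBJ1-3, TRBJ2-2 and TRBJ1-5 each took 1.04% to 2.94% of short clones, and TRBJ1-6 took 0.492% against 2.19% of longer ones.

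The percentage of a J gene's clones that were short followed the length of its germline end only in part. It was 12.1% for TRBJ2-7, whose 19 germline bases are the fewest, and 11.4% for TRBJ1-1 with 20 bases. It fell to 1.43% for TRBJ1-6, which has 25 bases. TRBJ1-2 also has 20 bases, yet 3.78% of its clones were short. TRBJ2-3, with 21 bases, had 1.84%, below TRBJ1-3 and TRBJ2-1 with 22 bases (3.73% and 3.87%) and TRBJ1-4 with 23 (2.95%). Germline length therefore did not order the genes completely. The residues followed the segments: 42.1% ± 4.93 of short clones ended in EQYF, the end that TRBJ2-7 encodes, against 20.9% ± 1.26 of longer clones, and 16.3% against 9.29% ended in EVFF of TRBJ1-1.

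V segments differed between the classes less than J segments did. The 5 V genes with the largest share of short clones were TRBV13-3 (14.5% ± 2.54 of short and 10.1% ± 1.397 of longer clones), TRBV13-2 (13.8% against 10.3%), TRBV29 (9.13% against 5.70%), TRBV16 (8.06% against 13.2%) and TRBV19 (6.28% against 4.96%). TRBV13-3 was higher in the short class in 17 of 17 mice and TRBV13-2 in 16 of 17. TRBV16, the V gene most used by longer clones, was lower in the short class in 17 of 17 mice. TRBV20 and TRBV30, named here after their values were seen, have V ends of 14 bases, and 12.97% and 13.6% of their clones were short. Among the 11 V genes with ends of 17 bases the percentage that was short ran from 2.44% for TRBV2 to 9.82% for TRBV29, with a median of 4.596%. It was 8.61% for TRBV31, whose V end of 13 bases, as assigned in the clones, is the shortest. That assigned end did not match the end of this gene in GENCODE vM39. TRBV12-1 and TRBV12-2, with 15 bases, stood at 3.93% and 4.84%, below the 5 V genes with 16 bases (6.71% to 8.35%). V genes were thus not ordered by germline length either. The commonest pairs of the short class were TRBV13-3 with TRBJ2-7 (7.30% ± 2.72 of short and 1.92% ± 0.290 of longer clones) and TRBV13-2 with TRBJ2-7 (7.24% ± 2.18 and 2.15% ± 0.367), each higher in 17 of 17 mice.

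**Figure D2:**
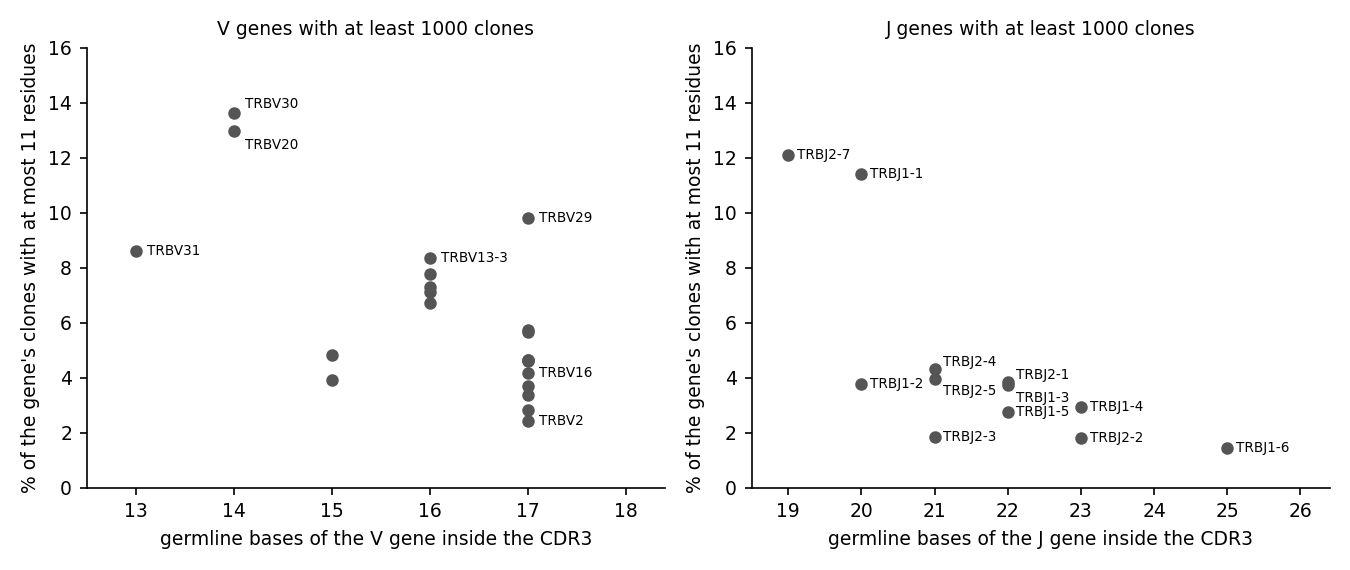
Percent of a gene's in-frame clones that had at most 11 residues, against the number of germline bases of that gene inside the CDR3, for V genes (left) and J genes (right) with at least 1000 clones in 17 mice. Each point is 1 gene. TRBJ2-7 (19 bases) and TRBJ1-1 (20 bases) stand at 12.1% and 11.4%, above all other J genes, and TRBV20 and TRBV30 (14 bases) stand highest among the V genes.

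J use within the short loops was not called different between genotypes. TRBJ2-7 ended 43.4%, 45.7%, 44.8% and 45.7% of short clones in WT mice 1 to 4 and 44.9%, 41.1%, 44.6%, 46.5% and 40.2% in β5i-KO mice 1 to 5. It ended 47.0%, 58.3%, 46.5% and 50% in β5t-KO mice 1 to 4, and 43.9%, 42.9%, 50.1% and 45.2% in BIT mice 1, 2, 4 and 5. All 4 β5t-KO values lay above the 4 WT values, the highest of them in the mouse with 24 short clones. By clones per J gene and length class, edgeR called 0% of the 24 features tested in each of the 5 comparisons. At an unadjusted p of at most 0.05, 1 of the 12 short features stood out in β5t-KO against WT and 2 in BIT against β5t-KO (TRBJ2-1 and TRBJ2-3, with adjusted p-values of 0.194 and 0.189), and 0 in the other 3 comparisons. Over all 24 features the shares at that level were 16.7% in each of these 2 comparisons, 12.5% in β5i-KO against WT and in BIT against β5i-KO, and 0% in BIT against WT.

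One V gene passed in 1 comparison. Short clones of TRBV1 made up 0.215%, 0.0233%, 0.103% and 0.0774% of in-frame clones in WT mice 1 to 4, and 0.348%, 0%, 0.254% and 0.153% in β5t-KO mice 1 to 4. The 2 groups overlapped, and the counts behind these shares were 2, 1, 16 and 14 clones in WT and 23, 0, 17 and 3 clones in β5t-KO mice. A count of 0 is that of the mouse with 393 in-frame clones. The edgeR log2 difference was 1.62 ± 0.41 SE (adjusted p = 0.0495 over 44 features). The call was lost on leaving out WT mouse 2, 3 or 4 or β5t-KO mouse 1 or 3, with adjusted p-values of 0.0632, 0.0645, 0.166, 0.234 and 0.162, and with DESeq2 (adjusted p = 0.157). In all, edgeR called 2.27% of the 44 features in this comparison, that 1 feature, and 0% in each of the other 4. At an unadjusted p of at most 0.05, 5 of the 21 short V features stood out for β5t-KO against WT, beside 15.9% of all 44, and 2 for β5i-KO against WT, beside 6.82%. The number was 1 for BIT against WT (2.27% of all), 2 for BIT against β5i-KO (4.55% of all) and 3 for BIT against β5t-KO (9.09% of all).

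TRBV14, singled out after its values were seen, separated β5t-KO from WT mice in the short class, and whether it passed depended on the fit. Its short clones made up 0.107%, 0.187%, 0.142% and 0.138% of in-frame clones in WT mice 1 to 4 and 0.303%, 0.254%, 0.284% and 0.306% in β5t-KO mice 1 to 4. The groups did not overlap, and the log2 difference was 1.00 ± 0.28 SE (edgeR, adjusted p = 0.0570). The counts behind these shares were 1, 8, 22 and 25 clones in WT and 20, 1, 19 and 6 clones in β5t-KO mice. The separation thus rests in part on single clones in WT mouse 1 and β5t-KO mouse 2. In BIT mice 1, 2, 4 and 5 the shares were 0.161%, 0.195%, 0.167% and 0.128%, all below the β5t-KO values (log2 difference of BIT minus β5t-KO -0.87 ± 0.25 SE, adjusted p = 0.138). With the replicate number as a block TRBV14 passed in both comparisons (adjusted p = 0.0196 and 0.0176). BIT against β5t-KO passed also with only these 2 groups fitted (0.0444) and with only the short class fitted (0.0492). Under the matching settings β5t-KO against WT did not pass for TRBV14. Neither comparison passed for it with TMM normalization, DESeq2, no filter or clones of at least 2 molecules. The share called over all features in these other fits was not computed. Leaving out β5t-KO mouse 2 brought TRBV14 in β5t-KO against WT to an adjusted p of 0.0464 (log2 difference 1.01), which no other mouse left out did. In the same fit TRBV29, lower in β5t-KO mice, came to 0.0426 (log2 difference -0.82). Longer TRBV14 clones made up 2.69%, 2.17%, 2.06% and 1.81% of in-frame clones in WT mice 1 to 4. In β5t-KO mice 1 to 4 they made up 2.70%, 2.29%, 2.69% and 2.80%. Whether the short class differed more than the longer one was not tested.

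Short loops had lost more germline sequence than longer ones and held less between V and J. Trimming of the J end averaged 5.53 ± 0.292 bases (SD, n = 17) in short and 2.61 ± 0.0562 bases in longer clones, and trimming of the V end 3.53 ± 0.270 and 2.59 ± 0.103 bases. The stretch between V and J was 4.87 ± 0.433 bases in short and 9.53 ± 0.137 bases in longer clones. Each of these differences had the same direction in 17 of 17 mice. A D segment was assigned in 36.3% ± 4.22 of short and 78.1% ± 1.14 of longer clones. Where one was assigned, TRBD2, the longer of the pair, made up 27.7% ± 6.81 in short and 45.6% ± 2.17 in longer clones, lower in 17 of 17 mice. None of the trimming, D or stretch values of short clones differed between genotypes by the exact permutation test, with adjusted p-values of 0.893 to 1.

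N bases were fewer in short loops in every mouse. The mean number per clone was 2.50 ± 0.154 (SD, n = 17) in short and 2.99 ± 0.0824 in longer clones, and the percentage of clones without any N base was 23.8% ± 4.55 against 15.7% ± 1.73. Bases between V and J that were given to no segment were counted as N bases, so a D remnant too short for the aligner was counted among them. The J end, the V end and the N bases all counted towards the length that defined the class, so these contrasts with longer clones describe how the length was made up and carry no test.

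Between genotypes, N bases in short clones gave no call. WT mice 1 to 4 averaged 2.43, 2.56, 2.44 and 2.54 N bases, and β5i-KO mice 1 to 5 averaged 2.61, 2.50, 2.59, 2.67 and 2.56. β5t-KO mice 1 to 4 averaged 2.16, 2.75, 2.19 and 2.64, and BIT mice 1, 2, 4 and 5 averaged 2.51, 2.39, 2.44 and 2.56. The β5t-KO group held both the lowest values and the highest, the highest in the mouse with 24 short clones. The β5i-KO mean exceeded WT by 0.0935 bases (exact permutation p = 0.0714, adjusted p = 0.179) and BIT by 0.110 bases (exact p = 0.0556, adjusted p = 0.179). The other 3 comparisons had exact p-values of 0.714, 0.714 and 0.771.

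Short clones without N bases were most frequent in β5t-KO mice, though not beyond the spread. They made up 30.0%, 37.5%, 29.5% and 22.4% of short clones in β5t-KO mice 1 to 4, against 24.5%, 22.1%, 23.8% and 20.4% in WT mice 1 to 4. In β5i-KO mice they made up 19.9% to 22.9%, and in BIT mice 21.5% to 22.9%. β5t-KO exceeded WT by 7.17 points, and BIT minus β5t-KO was -7.62 points (exact permutation p = 0.0857 for both, adjusted p = 0.172 for both). In longer clones the same percentage was 18.1% in β5t-KO and 15.6% in WT mice, a difference of 2.51 points (exact p = 0.0857, adjusted p = 0.107). Longer clones without N bases were more frequent in BIT than in β5i-KO mice by 0.878 points (exact p = 0.00794, adjusted p = 0.0397), where short clones differed by 1.195 points (exact p = 0.103, adjusted p = 0.172), and the contrast of these differences was not tested. The difference in mean N bases between short and longer clones of a mouse did not separate any pair of genotypes (adjusted exact p of 0.821 to 0.943).

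**Figure D3:**
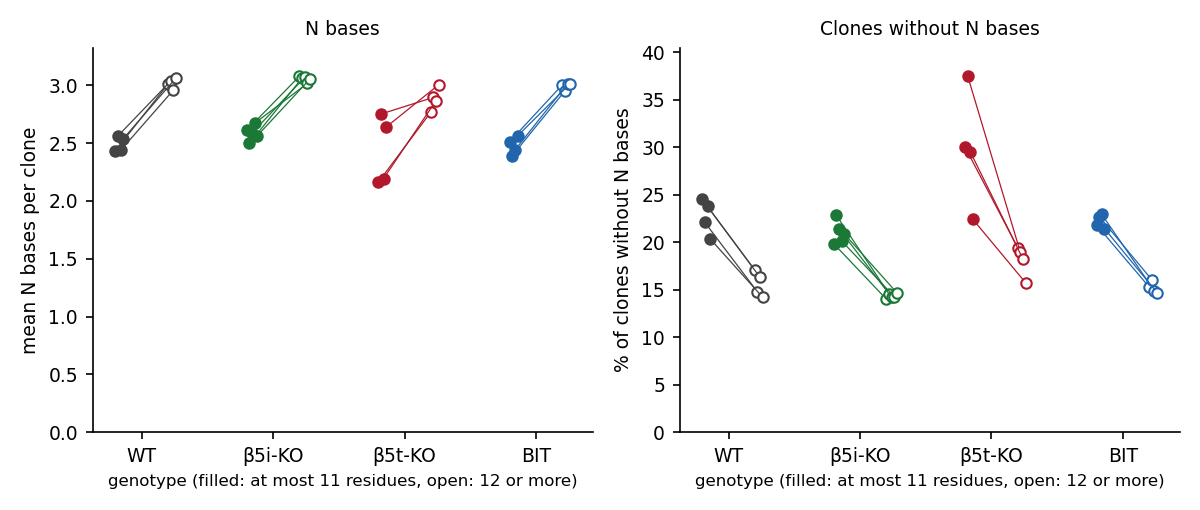
Mean N bases per clone (left) and percent of clones without N bases (right) in clones of at most 11 residues (filled) and of 12 or more residues (open), by genotype. A line joins the values of 1 mouse. Short clones held fewer N bases in all 17 mice, and the 4 β5t-KO mice spread from 22.4% to 37.5% in the right panel.

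The shortest loops were often V joined directly to J. Clones with no D and no N base made up 0.235% of clones of 12 or more residues, 5.07% of those of 11 residues, 14.1% of those of 10 residues and 23.9% of those of 9 residues or fewer (161 of 673 clones). In such joins, some bases at the junction could have come from either germline end. At least 3 such bases were present in 32.3% of the direct joins of 9 residues or fewer, in 19.5% at 10 residues, in 3.64% at 11 residues and in 1.57% of those of 12 or more residues. For loops of at most 11 residues the percentage joined directly was 8.83% in β5t-KO, 7.45% in BIT, 7.42% in WT and 7.17% in β5i-KO mice, with the clones of each genotype pooled and with no test.

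Short loops recurred between mice more than longer ones. To compare them at equal depth, each mouse was thinned to 7669 in-frame molecules, which left 24 to 458 short clones per mouse. At that depth 43.9% ± 4.66 (SD, n = 17) of a mouse's distinct short CDR3β were found in at least 1 of the other 16 mice, against 27.2% ± 1.26 of its longer ones. The difference of 16.7 ± 3.85 points was positive in 17 of 17 mice, and an exact permutation test by sign flips gave p = 1.53e-05, the smallest it can give. A shared sequence raises the value of every mouse that holds it. The 17 values are therefore not fully independent, which this p does not take into account. At the deposited depth the percentages were 54.3% and 40.3%, and by nucleotide sequence at equal depth 16.6% and 5.88%, again higher in 17 of 17 mice.

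Each genotype showed it. The short percentage at equal depth was 47.1%, 42.3%, 43.2% and 40.2% in WT mice 1 to 4, and 40.2%, 37.8%, 41.9%, 41.6% and 44.4% in β5i-KO mice 1 to 5. It was 47.7%, 55.7%, 42.5% and 53.2% in β5t-KO mice 1 to 4, and 40.5%, 43.3%, 42.2% and 41.9% in BIT mice 1, 2, 4 and 5. The lowest of these lay above the highest value for longer clones, 29.0%. The highest values, 55.7% and 53.2%, belong to β5t-KO mice 2 and 4, which held 24 and 116 short clones as deposited.

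**Figure D4:**
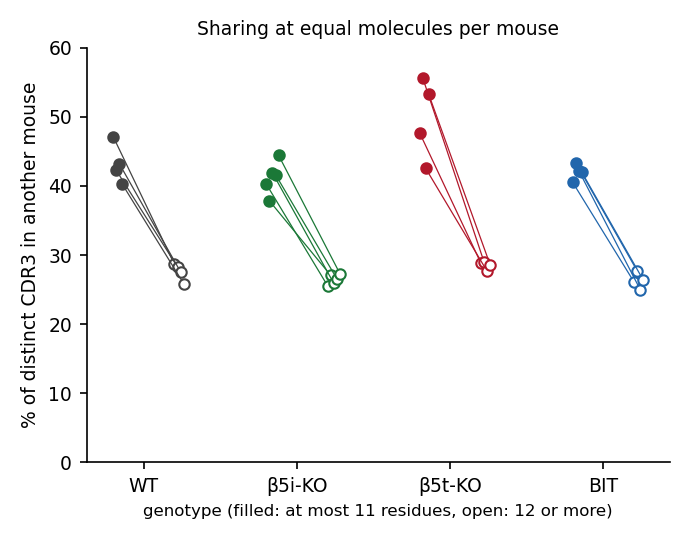
Percent of a mouse's distinct CDR3β amino acid sequences found in at least 1 of the other 16 mice after thinning each mouse to 7669 molecules, by genotype, for loops of at most 11 residues (filled) and of 12 or more (open). A line joins the values of 1 mouse. All 17 lines fall, from 37.8% to 55.7% on the left to at most 29.0% on the right.

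Sharing was not highest at the shortest lengths. At equal depth, 19.9% of the distinct sequences of 11 residues occurred in 2 or more mice, 17.9% of those of 10 residues, 7.52% of those of 9 and 3.69% of those of 8. Just beyond the limit, at 12 residues, it was 18.5%, and it fell to 14.1% at 14 residues and 4.73% at 16. At the deposited depth the highest share was at 12 residues, with 24.3% against 23.7% at 11. N bases averaged 2.25 at 10 residues, 2.59 at 11 and 2.87 at 12 residues.

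**Figure D5:**
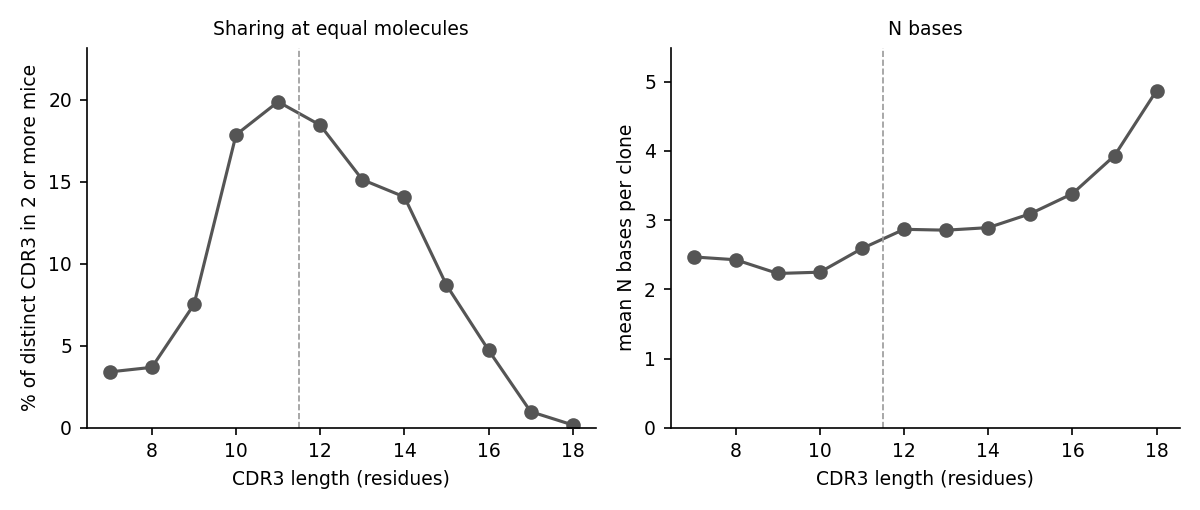
Percent of distinct CDR3β sequences found in 2 or more of 17 mice at equal molecules (left) and mean N bases per clone (right), against CDR3 length in residues from 7 to 18. The dashed line marks the limit between 11 and 12 residues. At this depth sharing peaks at 19.9% at 11 residues, and N bases rise from 2.25 at 10 residues to 4.87 at 18.

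Of the 8560 distinct short sequences, 6645 were found in 1 mouse and 1915 in 2 or more. WT mice held 1829, β5i-KO mice 4129, β5t-KO mice 856 and BIT mice 4233 of them, and 197 occurred in all 4 genotypes. WT and BIT mice shared 654 sequences, 35.8% of the WT list and 15.45% of the BIT list. WT and β5i-KO mice shared 668, 36.5% of the WT and 16.2% of the β5i-KO list. β5i-KO and BIT mice shared 1211, 29.3% and 28.6% of their lists. β5t-KO mice shared 246 with WT mice (28.7% of the β5t-KO and 13.4% of the WT list), 358 with β5i-KO mice (41.8% and 8.67%) and 380 with BIT mice (44.4% and 8.98%). The larger lists came from the genotypes with more clones, and these overlaps were not adjusted for depth.

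Sequences found in more mice held fewer N bases and more TRBJ2-7. Clones of sequences seen in 1 mouse averaged 3.08 N bases, and 35.4% of them used TRBJ2-7. Clones of the 105 sequences seen in 9 or more mice averaged 1.68 N bases, 33.4% had none, and 69.9% used TRBJ2-7. Each of those 105 sequences was encoded by 11.1 different nucleotide sequences on average, against 1.02 for sequences of 1 mouse, although a sequence seen in more mice also has more clones in which to vary. Of all short sequences, 1845 were encoded by 2 or more nucleotide sequences, and the largest number for 1 sequence was 36.

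At equal depth, mice shared short sequences within their own genotype and with mice of another genotype to degrees that no adjusted exact test separated. The overlap of 2 mice was taken as the shared sequences over all sequences of the pair. In the comparison of BIT with β5t-KO mice it averaged 4.61% within and 3.797% between genotypes, an exact permutation p of 0.0286, the smallest the design allows, and an adjusted p of 0.143. Leaving out single mice moved the difference of 0.809 points to between 0.191 and 1.85, and without any one of the 4 BIT mice it lay at 0.191 to 0.336 with exact p-values of 0.486 to 0.743. The BIT pairs averaged 6.26% and the β5t-KO pairs 2.95%, and the number of short clones after thinning differed in the same direction, with 389 to 458 in BIT and 24 to 284 in β5t-KO mice. Its part in the result was not tested. For BIT with WT mice the overlap was 4.53% within and 4.40% between (exact p = 0.343), for BIT with β5i-KO mice 5.27% and 5.52% (exact p = 0.111), for β5i-KO with WT mice 3.97% and 4.04% (exact p = 0.873) and for β5t-KO with WT mice 2.87% and 2.73% (exact p = 0.914). The highest overlap of any pair of mice at equal depth was 6.83%. Thinning keeps only part of each deeper library, so this overlap cannot show whether 2 libraries repeat each other.

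Shown next, each with its commonest nucleotide sequence in 17 mice, are the 4 most widely shared short loops and 3 shorter ones of 10, 9 and 8 residues that also recurred, because they show which bases the files assigned to a segment. Bases given to no V, D or J segment are in capitals. The assigned V part can run past the germline end, as in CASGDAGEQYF, with 17 assigned V bases where the TRBV13-2 end has 16, and in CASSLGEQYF, with 16 where the TRBV12-1 end has 15.
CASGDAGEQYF: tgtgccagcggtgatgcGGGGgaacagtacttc
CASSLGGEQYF: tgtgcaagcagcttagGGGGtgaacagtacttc
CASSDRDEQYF: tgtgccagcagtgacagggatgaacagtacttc
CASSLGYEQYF: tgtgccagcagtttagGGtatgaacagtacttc
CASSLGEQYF: tgtgccagctctctcgGtgaacagtacttc
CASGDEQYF: tgtgccagcggtgatgaacagtacttc
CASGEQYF: tgtgccagcggtgaacagtacttc
The first 4 were each found in 14 of 17 mice, more than any other short sequence. All 7 join to TRBJ2-7 and end in the letters gaacagtacttc, which that segment contains. In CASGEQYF the first g of these letters is assigned to TRBV13-2 and the other 11 bases to TRBJ2-7. The unassigned bases of the first 2 are GGGG, letters that both germline D segments also contain.

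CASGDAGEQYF was found in 3 of 4 WT, 5 of 5 β5i-KO, 2 of 4 β5t-KO and 4 of 4 BIT mice, in each case with TRBV13-2 and TRBJ2-7. Its 15 nucleotide sequences averaged 3.52 N bases per clone, and the one printed was found in 9 mice. Per 1000000 unique molecules it was at 0, 462, 318 and 701 in WT mice 1 to 4, at 145, 437, 344, 410 and 418 in β5i-KO mice 1 to 5, at 0, 0, 396 and 231 in β5t-KO mice 1 to 4, and at 147, 224, 609 and 297 in BIT mice 1, 2, 4 and 5. The mice at 0 were WT mouse 1 and β5t-KO mice 1 and 2, and the genotypes overlapped.

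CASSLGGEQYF was built in the most ways, from 36 nucleotide sequences and 11 V-J pairs, most often TRBV16 with TRBJ2-7. It was found in 4 BIT, 3 WT, 4 β5i-KO and 3 β5t-KO mice, and 63.0% of its clones had no N base. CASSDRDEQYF was found in 4 BIT, 2 WT, 5 β5i-KO and 3 β5t-KO mice. A single nucleotide sequence of it, printed above, was present in 12 mice and held V, D and J bases only (14 from TRBV13-3, 5 from TRBD1 and 14 from TRBJ2-7). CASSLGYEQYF came from 31 nucleotide sequences and 12 V-J pairs in 4 BIT, 3 WT, 5 β5i-KO and 2 β5t-KO mice, and 5% of its clones had no N base.

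The other 6 of the 10 most shared sequences were each found in 13 mice: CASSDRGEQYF, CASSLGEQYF, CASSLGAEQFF, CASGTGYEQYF, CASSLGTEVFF and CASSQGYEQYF. Of these 6, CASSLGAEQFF used TRBJ2-1 and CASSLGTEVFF used TRBJ1-1 most often, and the others TRBJ2-7. Their mean levels over the 17 mice were 124 to 207 per 1000000 molecules, except for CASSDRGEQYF with a mean of 714. That mean rests on β5t-KO mouse 2, where it was at 9780 per 1000000 molecules (75 molecules), while the other 16 mice lay between 0 and 597.

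Among still shorter loops, both named after their values were seen, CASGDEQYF of 9 residues was found in 11 mice and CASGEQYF of 8 residues in 9 mice, each in all 4 genotypes. The commonest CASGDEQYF sequence, present in those 11 mice, was TRBV13-2 joined to TRBJ2-7 with no D and no N base (15 and 12 bases), and the commonest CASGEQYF sequence, in 6 mice, was the same pair with 13 and 11 bases. Below 8 residues, 7 sequences were found in 2 mice each and none in more. The shortest recurring loop, CASSF of 5 residues, was found in 2 mice with a different nucleotide sequence in each.

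In the edgeR fit as designed, no single short sequence was called different between genotypes, whereas DESeq2 made calls. Of the 3497 sequences with at least 10 per 1000000 reads in at least 3 mice of a group, 346 were short. Of these, 229 passed through 1 genotype only. The filter thus favoured sequences with unlike levels between genotypes, and passing it does not show a difference. edgeR called 0% of the 3497 in each of the 5 comparisons. At an unadjusted p of at most 0.05 it listed 86 of the 346 (24.9%) when β5i-KO mice were set against WT, beside 30.8% of all sequences tested. For β5t-KO mice against WT it listed 128 (37%, beside 41% of all), and for BIT mice against WT 100 (28.9%, beside 32.1%). For BIT against β5i-KO it listed 36 (10.4%, beside 14.7%) and for BIT against β5t-KO 151 (43.6%, beside 53.6%). DESeq2 called 48 of the short sequences with an adjusted p (14.1%, beside 14.5% of all) in the first of these comparisons, 114 (33%, beside 37.8%) in the second, 50 (14.7%, beside 14.3%) in the third, 11 (3.19%, beside 4.58%) in the fourth and 122 (35.4%, beside 41%) in the fifth. With TMM normalization edgeR called 151 (43.6%, beside 54.4%) in the fifth. The absence of adjusted calls in the fit as designed thus depended on the settings and does not show that levels were equal. The shares of short sequences were near or below those of all sequences. Leaving out BIT mouse 2 or 4 gave up to 11 and 2 edgeR calls. To pass through the BIT group, a sequence then had to reach the limit in all 3 remaining BIT mice. The share called over all sequences in those fits was not computed, so these counts say nothing particular about short sequences. Of the 346, 254 passed in BIT, 186 in β5i-KO, 37 in WT and 16 in β5t-KO mice, and the number of in-frame clones per mouse was lowest on average in the last 2 groups.

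Short clones held slightly more unique molecules than longer ones. The number of cells per clone was not measured. The mean number of unique molecules per short clone was 10.0, 7.12, 5.17 and 7.42 in WT mice 1 to 4 against 8.61, 7.07, 4.87 and 6.83 per longer clone. In BIT mice 1, 2, 4 and 5 it was 4.35, 3.12, 3.09 and 3.30 against 3.95, 2.88, 2.73 and 2.99. In β5i-KO mice 1 to 5 it was 2.98, 6.86, 3.90, 1.49 and 6.42 against 2.73, 6.73, 3.34, 1.45 and 5.88. In β5t-KO mice 1 to 4 it was 6.83, 21.4, 4.37 and 19.3 against 6.62, 19.4, 4.14 and 17.6. The short class was higher in 17 of 17 mice, by 0.12 ± 0.06 on the log2 scale (SD, n = 17, exact permutation p by sign flips = 1.53e-05, the smallest it can give).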

How the data were processed

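TCRβ libraries were made with unique molecular identifiers (SMARTer Mouse TCR a/b Profiling kit), and clones were assembled by the authors using MiXCR (mm10 is the genome build in the submitters' processing notes, and the MiXCR version is not given in the sources used here). The deposited tables hold, per clone, counts of reads and of unique molecules, not normalized, with V, D and J assignments and reference points. TCRα tables were not used here. Germline ends were read from GRCm39 with GENCODE vM39, and no coordinates were taken from the clone tables.

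In-frame clones (97.1% of 266600) were kept, and the first-listed V and J gene was used (9 short clones listed several V genes). N bases were the bases between V and J minus the D bases. Shares were compared with exact two-sided permutation tests over mice, with Benjamini-Hochberg adjustment over the 5 comparisons. Counts of clones per length, per V and J gene by length class (at least 5 clones in at least 4 libraries) and of reads per CDR3β were tested with edgeR 4.0.16 (quasi-likelihood, 4 groups in 1 fit, library size as all in-frame clones or reads), with DESeq2 1.42.0 as an alternative, in R 4.3.3. Other values were computed with Python 3.11.15. Thinning to 7669 molecules used the mean of 20 draws. The scripts were tested on simulated data. Named genes were those with a called short class, the 5 V genes with the largest share of short clones and every TRBJ gene. Named sequences were those called, the 10 found in most mice and the shortest that recurred. The members and these lists were chosen with earlier results of these data known. Each mouse gave 1 library, so p-values measure the spread between these mice. The percentages of sequences found in another mouse depend on one another, which their p-value does not cover.

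Replicate numbers are shared between groups. Deviations of same-numbered mice from their group means, over V genes by length class, correlated at 0.173 to 0.765 in all 4 pairs of β5i-KO with WT mice, and in the other comparisons not every pair exceeded 0.1. Blocking on the number changed no call in β5i-KO against WT.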

Additional observations from a re-analysis of the deposited data

Results flagged for a closer look

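One value stood apart from its group. In BIT mouse 5 the V end of short clones had lost 3.598 bases on average, against 3.49 to 3.50 in the other 3 BIT mice, a gap larger than the critical value of Dixon's test. It was the only such value among 40 sets tested (10 measures in 4 genotypes), and chance alone flags about 1 in 20. The range over all 17 mice was 3.05 to 4.21 bases.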

How the results depend on the processing

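The share of short clones, N bases and sharing between genotypes passed no test under any alternative run. The excess of sharing and of molecules per clone in short over longer loops kept its direction and its call under every alternative, ranging from 16.1 to 17.1 points and from 0.11 to 0.12 on the log2 scale when each mouse was left out. Without single mice the other differences in short share ran from 0.0692 to 0.284 points (β5i-KO minus WT), 0.201 to 0.518 (β5t-KO minus WT), 0.260 to 0.512 (BIT minus WT) and 0.0834 to 0.336 (BIT minus β5i-KO), and within minus between sharing of BIT with β5t-KO ran from 0.191 to 1.85. Differences that changed sign were small: the short share of BIT minus β5t-KO (0.0243 points) became -0.0346 by reads and -0.177 with a limit of 10 residues, and -0.123 to 0.193 without single mice. N bases of β5t-KO minus WT (-0.0570) became 0.269 with all bases between V and J, and -0.162 to 0.0344 without single mice. N bases of BIT minus WT (-0.0166) became 0.107 in clones with a D segment, 0.00521 with all bases, 0.0270 by molecules and 0.0110 in clones of at least 2 molecules, and -0.0451 to 0.0117 without single mice. N bases of BIT minus β5t-KO (0.0404) became -0.264 with all bases, and -0.0510 to 0.145 without single mice. Within minus between genotype sharing became 0.0464 (β5i-KO with WT) and 0.00350 (BIT with β5i-KO) by nucleotide sequence, and without single mice ran from -0.390 to 0.346 (β5i-KO with WT), -0.360 to 0.396 (β5t-KO with WT), -0.486 to 0.916 (BIT with WT) and -0.503 to 0.0159 (BIT with β5i-KO). Short clones without N bases in BIT minus WT (-0.455 points) became 0.614 with BIT mouse 3 included, and -1.23 to 0.155 without single mice. The cause was not tested.

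Calls of short V features in β5t-KO against WT numbered 0 with TMM normalization, DESeq2, no filter, only the 2 groups or clones of at least 2 molecules, 2 with only the short class fitted, and 0 to 3 without single mice. In BIT against β5t-KO they numbered 2 with only the 2 groups and 2 with only the short class. Short sequences called numbered 151 in BIT against β5t-KO with TMM, 48, 114, 50, 11 and 122 with DESeq2 (β5i-KO, β5t-KO and BIT against WT, BIT against β5i-KO and against β5t-KO), and without single mice 0 to 11 (BIT against WT), 0 to 5 (BIT against β5i-KO) and 0 to 11 (BIT against β5t-KO). Over all sequences tested the shares were 54.4% with TMM and 14.5%, 37.8%, 14.3%, 4.58% and 41% with DESeq2. For sequences without single mice, and for V features under other settings including the replicate block, the share called over all features was not computed. Those counts therefore cannot be set against the longer class. Short J features and lengths gave 0 calls throughout.

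With the replicate number as a block, short V features called were 2 in β5t-KO against WT (TRBV1 and TRBV14) and 1 in BIT against β5t-KO (TRBV14), N bases of BIT minus β5t-KO became -0.0691, short clones without N bases of BIT minus WT became 0.167 points, and no other call changed. Over the 22 same-numbered pairs of mice the correlation of deviations had a median of 0.331, against -0.111 over 86 pairs with other numbers. Depth limits the β5t-KO group most.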
